A study of Mus musculus with 4 samples.

Results

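The constant genes of immunoglobulin, with the joining chain gene Jchain, were followed across 4 single-cell RNA libraries of mouse lung cells enriched for leukocytes. The 9 genes were taken by name from the gene rows of the count tables, 9 of 31053 rows: the light chain genes Igkc, Iglc1, Iglc2 and Iglc3, the heavy chain genes Ighm, Ighd, Igha and Ighg2b, and Jchain. They were counted as unique molecular identifiers (UMIs, 1 per captured transcript) in B cells, in antibody-secreting cells and in every other cell class. In the PD-L1 KO group (2 libraries), Balb/c mice had received 4T1 cells, a mouse mammary carcinoma line, with a knockout of PD-L1, an immune checkpoint ligand. In the WT group (2 libraries), Balb/c mice had received WT 4T1 cells. Both lines were injected intravenously, and the labels name no change to the mice themselves, so the knocked-out gene cannot be checked in the leukocytes. Nor do the labels say whether the knockout line was 1 clone. Lungs of both groups were taken on day 14, perfused and digested, and cells bearing CD45, a surface protein of leukocytes, were enriched with magnetic beads. Nothing in the labels ties the libraries of a group to separate mice, so every p-value measures only the spread between libraries, which may be technical. The names of the deposited tables carry the opposite condition to the sample labels. The labels were followed throughout, and every direction given here would turn round if the table names were right.

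An antibody joins 2 identical heavy chains and 2 identical light chains, each with a variable part made by gene rearrangement and a constant part read from 1 of the genes described here. A mouse B cell uses either the kappa light chain (Igkc) or a lambda light chain (Iglc1, Iglc2 or Iglc3), and most mouse B cells use kappa. A naive B cell makes IgM and IgD from alternative splicing of the same primary transcript (Ighm and Ighd). After activation a B cell can switch to a downstream constant gene such as Igha (IgA) or Ighg2b (IgG2b). Plasmablasts and plasma cells turn a large part of their transcription over to these genes, and Jchain encodes the small protein that links IgM and IgA units into polymers.

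On GRCm38, the build that the submitters' processing notes call mm10, the GENCODE M21 annotation placed the 9 genes on 4 chromosomes. Igkc lies at chr6:70726435-70726966 on the plus strand. The heavy chain genes lie on the minus strand of chromosome 12, with Ighm at chr12:113418558-113422730, Ighd at chr12:113406604-113416324, Ighg2b at chr12:113302965-113307933 and Igha at chr12:113254830-113260236. Iglc1 (chr16:19061618-19062071), Iglc3 (chr16:19065230-19065681) and Iglc2 (chr16:19198396-19200351) share the minus strand of chromosome 16. Jchain, at chr5:88519809-88527891 on the minus strand, is the only member annotated as an ordinary protein-coding gene. The 3 lambda genes are copies of each other, so their coding ends are printed to show which of them a short 3′ read can tell apart. Each line is the last 120 coding bases, stop codon included, of the GENCODE transcript, 5′ to 3′ (GRCm38, minus strand). Capitals mark the bases at which Iglc1 and Iglc3 differ from Iglc2 and, in the Iglc2 line, those at which it differs from Iglc3.
Iglc1, chr16:19061752-19061871: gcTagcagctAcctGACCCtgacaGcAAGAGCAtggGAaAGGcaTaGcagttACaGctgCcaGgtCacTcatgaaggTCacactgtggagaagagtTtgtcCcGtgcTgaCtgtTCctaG
Iglc2, chr16:19198536-19198655: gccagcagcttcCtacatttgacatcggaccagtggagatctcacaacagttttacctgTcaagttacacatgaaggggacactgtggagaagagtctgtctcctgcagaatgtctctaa
Iglc3, chr16:19065365-19065484: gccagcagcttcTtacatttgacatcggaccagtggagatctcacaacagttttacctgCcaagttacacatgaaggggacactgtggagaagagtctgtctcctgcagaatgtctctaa
Iglc2 and Iglc3 differed at 2 of these 120 bases (98.3% identical), and their transcripts shared a run of 79 identical bases. Iglc1 differed from each of them at 39 of 120 bases (67.5% identical), with a longest shared run of 19 bases with Iglc2 and 17 with Iglc3. The split of UMIs between Iglc2 and Iglc3 is therefore uncertain, and that between Iglc1 and the other two is less so.

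The tables held 10382 cell barcodes and 17618220 to 19635983 UMIs per library. After filters 9054 cells were kept, 2220 and 2019 in the PD-L1 KO libraries and 2451 and 2364 in the WT libraries, with a median of 5101 and 5512 UMIs per cell in PD-L1 KO and 4395 and 4618 in WT. Between libraries, 0 to 3 barcodes per pair were the same. Cells were grouped into 31 clusters without any immunoglobulin gene or Jchain among the genes used. Member UMIs still counted in the total to which each cell was scaled, and in the doublet scores. Of the 31 clusters, 9 (1775 cells) carried the markers of unrelated lineages together and are called mixed. Not all kept cells were leukocytes: clusters were also named endothelial (541 cells), fibroblast (157 cells) and epithelial/carcinoma (14 cells). These cells count in the sums over all kept cells and in those outside the B lineage. A single cluster was B-like, led by Cd79a, Cd79b and Ms4a1, with 657 cells once antibody-secreting cells were set aside. In that cluster 99.2% of cells had a UMI of Cd79a, 98.5% of Cd79b and 93.2% of Ms4a1.

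The selection of B cells by at least 1 UMI of Cd79a, a signalling partner of the antigen receptor, took in many cells outside the B-like cluster. Of 1554 such cells, 652 (42.0%) lay in the B-like cluster, 686 (44.1%) in mixed clusters and 215 (13.8%) in clusters named for other cell types. Mixed clusters held 20314 Igkc UMIs, against 21043 in the B-like cluster. The B-like cluster is therefore used first below, and the Cd79a-selected cells stand beside it.

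In B-like cells the lambda gene levels were higher in the PD-L1 KO libraries without passing the test, while Ighm and Ighd overlapped between the groups. Iglc1, the constant gene of lambda 1 light chains, reached 1172 and 1176 CPM (UMIs scaled to 1000000 UMIs of the same cells in a library) in the PD-L1 KO libraries, against 607 and 683 CPM in the WT libraries. Both PD-L1 KO libraries lay above both WT libraries, and the log2 difference was 0.87 (SE 0.18). The largest cell held 10.6% and 15.7% of the Iglc1 UMIs in PD-L1 KO and 11.7% and 14.6% in WT. With edgeR's quasi-likelihood test and Benjamini-Hochberg adjustment over 6211 genes, the adjusted p was 0.292 (9.4e-05 before adjustment), so Iglc1 did not pass. Without a filter on low counts the adjusted p was 0.0047. Over the 4 fits that each left out 1 library, the edgeR adjusted p ran from 0.00018 without PD-L1 KO 1 to 0.9995 without WT 1, and it was 0.00045 without PD-L1 KO 2, while the log2 difference stayed between 0.80 and 0.94.

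Iglc2, which encodes the constant part of lambda 2, had 1191 and 1293 CPM in PD-L1 KO B-like cells and 1050 and 888 CPM in WT B-like cells, a log2 difference of 0.36 (SE 0.18). Iglc3, for lambda 3, had 551 and 574 CPM in PD-L1 KO and 542 and 518 CPM in WT, a log2 difference of 0.09 (SE 0.18). Igkc, the kappa constant gene and the most abundant member, had 8847 and 8034 CPM in PD-L1 KO and 9172 and 9687 CPM in WT, a log2 difference of -0.15 (SE 0.14). The groups did not overlap for any of the 4 light chain genes: the lambda genes were higher and Igkc lower in PD-L1 KO. None of Iglc2, Iglc3 and Igkc passed the edgeR test (adjusted p = 0.998 each). Among all 6211 genes tested in these cells, 15.9% had both PD-L1 KO libraries above both WT libraries and 15.5% had both below, so the order of a single gene says little. Lambda genes made up 24.8% and 27.5% of light chain UMIs in PD-L1 KO B-like cells and 19.3% and 17.7% in WT B-like cells.

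Ighm, the IgM heavy chain gene, had 4098 and 3761 CPM in PD-L1 KO B-like cells and 3823 and 3801 CPM in WT B-like cells. Ighd, the IgD heavy chain gene, had 814 and 589 CPM in PD-L1 KO and 800 and 769 CPM in WT. Both genes overlapped between the groups, with log2 differences of 0.05 (SE 0.15) for Ighm and -0.16 (SE 0.19) for Ighd (edgeR adjusted p = 0.998 each). Of the 7 members tested in B-like cells, 0 passed the edgeR test at an adjusted p of 0.05, against 1 gene (0.0161%) of 6211 overall. Iglc1 and Igha had an unadjusted p under 0.05, as did 3.99% of all genes. Ighg2b and Jchain had too few UMIs in B-like cells to be tested. The gene that passed was S100a9, an alarmin made in large amounts by neutrophils, with 8 and 6 UMIs in PD-L1 KO and 89 and 34 UMIs in WT (log2 difference -2.77, SE 0.44, edgeR adjusted p = 0.033). It was named after its values were seen. Its adjusted p was 0.075 with DESeq2, 0.073 with edgeR without WT 1, and 0.135 with the antibody-secreting cells kept in, so the call was lost in each. Its part in the member levels was not tested.

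**Figure D1:**
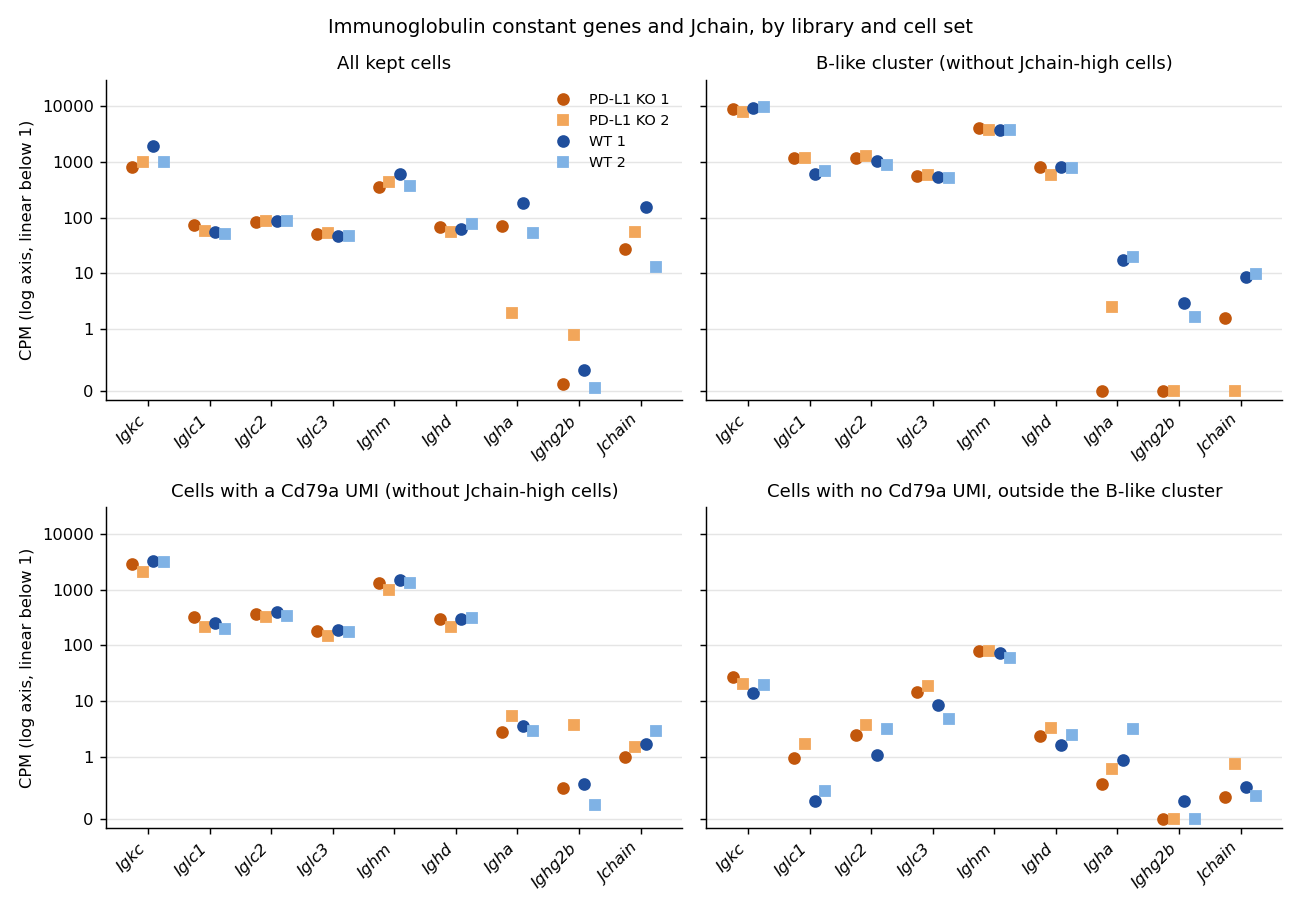
Levels of the 9 genes (CPM, log axis that is linear below 1) in 4 sets of cells, with 1 point per library, PD-L1 KO in orange and WT in blue. In B-like cells the PD-L1 KO points for Iglc1 sit at 1172 and 1176 CPM, above the WT points at 607 and 683 CPM, while Igha and Jchain over all kept cells overlap between the groups.

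Light chain use was then read cell by cell. A B-like cell with at least 5 light chain UMIs was called kappa or lambda where 1 type held at least 80% of them, which gave 405 kappa cells, 26 lambda cells and 222 cells assigned to neither. Among the cells assigned, lambda cells were 13 of 124 and 5 of 48 in the PD-L1 KO libraries (10.5% and 10.4%) and 5 of 131 and 3 of 128 in the WT libraries (3.82% and 2.34%). The exact 95% binomial intervals ran from 5.70% to 17.3% and from 3.47% to 22.7% in PD-L1 KO and from 1.25% to 8.68% and from 0.486% to 6.70% in WT, and cover counting error only. The shares averaged 10.5% ± 0.048 in PD-L1 KO and 3.08% ± 1.04 in WT (SD, n = 2 libraries each). The exact permutation test gave a two-sided p of 0.333, the smallest that 2 libraries against 2 allow. Lambda cells led by Iglc1 numbered 10 and 5 in PD-L1 KO and 1 and 3 in WT. Together these cells held 779 of the 2046 Iglc1 UMIs of B-like cells. Those led by Iglc2 numbered 3 and 0 in PD-L1 KO and 2 and 0 in WT, and those led by Iglc3 numbered 0 and 0 in PD-L1 KO and 2 and 0 in WT.

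Over all B-like cells assessed, lambda cells made up 6.67% and 5.26% in PD-L1 KO and 2.67% and 1.70% in WT, a difference of 3.78 percentage points in place of 7.37. Cells assigned to neither type were also more frequent in PD-L1 KO, at 36.4% and 49.5% of the B-like cells assessed, against 29.9% and 27.3% in WT. Kappa cells made up 56.9% and 45.3% of the cells assessed in PD-L1 KO and 67.4% and 71.0% in WT (exact permutation p = 0.333 for each share). By the rule that chose them, kappa cells had a median of 31 Igkc UMIs and 0 Iglc1 UMIs, and lambda cells a median of 1 Igkc UMI and 29.5 Iglc1 UMIs. Iglc2 and Iglc3 were not absent from kappa cells: 77.3% had an Iglc2 UMI (median 2) and 71.6% an Iglc3 UMI (median 1), whereas 36.3% had an Iglc1 UMI. In the neither group the medians were 23 Igkc, 2 Iglc1, 5 Iglc2 and 2 Iglc3 UMIs. With at least 10 light chain UMIs and 90% of 1 type required, the lambda shares were 11.9% and 17.4% in PD-L1 KO and 4.23% and 4.41% in WT. Over all Cd79a-selected cells they were 7.87% and 7.14% in PD-L1 KO and 5.65% and 4.18% in WT, which is a difference of 2.60 percentage points.

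**Figure D2:**
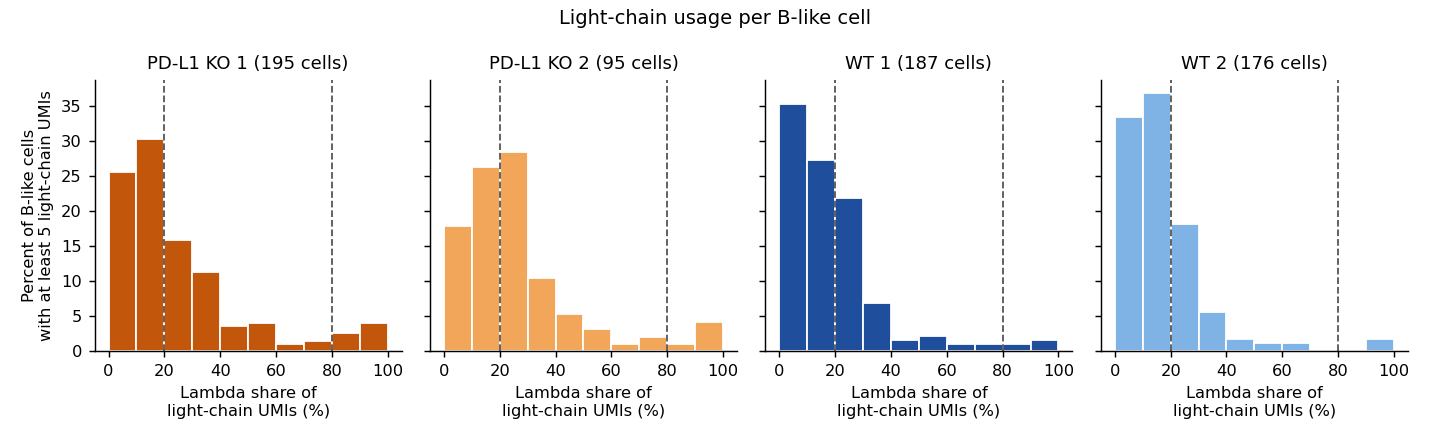
Distribution of the lambda share of light chain UMIs per B-like cell (percent, bins of 10) in each library, as a percent of cells with at least 5 light chain UMIs; dashed lines mark the limits for kappa (20%) and lambda (80%) calls. Cells of the 2 PD-L1 KO libraries fill the kappa side less (56.9% and 45.3%) than those of the 2 WT libraries (67.4% and 71.0%).

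Most B-like cells carried the unswitched heavy chain pair. Ighm and Ighd were found together in 79.7% and 69.8% of PD-L1 KO B-like cells and in 78.2% and 81.8% of WT B-like cells, and a UMI of Ighm in 99.5% and 100% of PD-L1 KO cells and 98.4% and 99.4% of WT cells. With each cell thinned to 1000 UMIs, a UMI of Ighd was left in 54.6% and 37.9% of PD-L1 KO and 54.5% and 49.4% of WT B-like cells (exact permutation p = 1). Cells in which Igha, Ighe and the Ighg genes outnumbered Ighm and Ighd were rare: 0 of 191 and 0 of 94 in PD-L1 KO, and 2 of 177 (1.13%) and 2 of 168 (1.19%) in WT (exact permutation p = 0.333). The exact upper limits for the PD-L1 KO libraries, 1.91% and 3.85%, lay above the WT shares. With so few switched cells and 2 libraries per group, these counts cannot decide whether the groups differ. The 4 switched cells were led by Igha (2 cells), Ighg1 (1 cell) and Ighg3 (1 cell), and none by Ighg2b.

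Igha was found in B-like cells at 0 and 1 UMIs in PD-L1 KO and 12 and 12 UMIs in WT, a ratio of 0.053 (exact 95% counting interval 0.0013 to 0.32, edgeR adjusted p = 0.761). With no filter on low counts the edgeR adjusted p was 0.010. In each WT library a single cell held most of these, 10 of 12 in WT 1 and 11 of 12 in WT 2. The ratio therefore compares a few cells, and its interval, which takes each UMI as an independent draw, is too narrow. Jchain had 1 and 0 UMIs in PD-L1 KO and 6 and 6 UMIs in WT B-like cells. Cells with at least 10 Jchain UMIs were left out of this set, so the rule itself limits these Jchain counts. The cells left out as antibody-secreting held 498 and 892 Jchain UMIs in PD-L1 KO and 2698 and 218 in WT. Ighg2b had 0 and 0 UMIs in PD-L1 KO and 2 and 1 in WT B-like cells. The IgG2b class was close to absent in every set. Over all kept cells Ighg2b had 2 and 15 UMIs in PD-L1 KO and 6 and 1 UMIs in WT, and 8 of the 15 UMIs of PD-L1 KO 2 came from 1 cell.

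Antibody-secreting cells were few. They held most of the Jchain UMIs of every library, a share that their choice by Jchain favours. Cells with at least 10 Jchain UMIs numbered 1 and 2 in the PD-L1 KO libraries and 3 and 1 in the WT libraries, 7 in all. Their shares of kept cells were 0.045% and 0.099% in PD-L1 KO and 0.12% and 0.042% in WT (exact permutation p = 1). The same number was found at a limit of 50 UMIs and over all barcodes without a cell filter. Each had at least 9 of the 10 listed markers of the secretory programme, such as Mzb1, an endoplasmic reticulum co-chaperone of B-lineage cells, and Txndc5, a disulphide isomerase. The next cells down had 5, 5 and 3 Jchain UMIs.

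All 7 cells were kappa cells, with lambda genes at 0.23% to 2.70% of light chain UMIs. Of these, 3 carried IgM and 4 carried IgA. The IgM cells were both cells of PD-L1 KO 2 and 1 cell of WT 1, with 1109, 1153 and 4028 Ighm UMIs and no Igha UMI. The IgA cells were the cell of PD-L1 KO 1, 2 cells of WT 1 and the cell of WT 2, with 1289, 2180, 1016 and 910 Igha UMIs. In each cell the leading heavy chain gene held 94.99% to 100% of heavy chain UMIs. Igkc ran from 2807 to 14589 UMIs per cell and Jchain from 218 to 1486. The 9 genes together took 37.0% of the UMIs of the PD-L1 KO 1 cell and 34.5% and 35.01% in the PD-L1 KO 2 cells, against 66.5%, 36.1% and 31.0% in the WT 1 cells and 12.3% in the WT 2 cell.

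The WT 2 cell differed from the rest. It had 39501 UMIs, sat in a mixed cluster, and held 42 UMIs of the proliferation marker Mki67, 5 of the T cell gene Cd3e and 20 of Ighe. A second WT 2 barcode in the same cluster, with 5 Jchain, 121 Igkc and 37 Igha UMIs among 1538, matched this cell's barcode after a single deleted base. The variable gene counts set a pair of IgM cells apart. Iglv1, a lambda variable gene, led the variable genes of the first PD-L1 KO 2 cell with 59 UMIs and of the first WT 1 cell with 136 UMIs, while these cells held 0 and 1 Iglc1 UMIs and 3797 and 14589 Igkc UMIs.

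**Figure D3:**
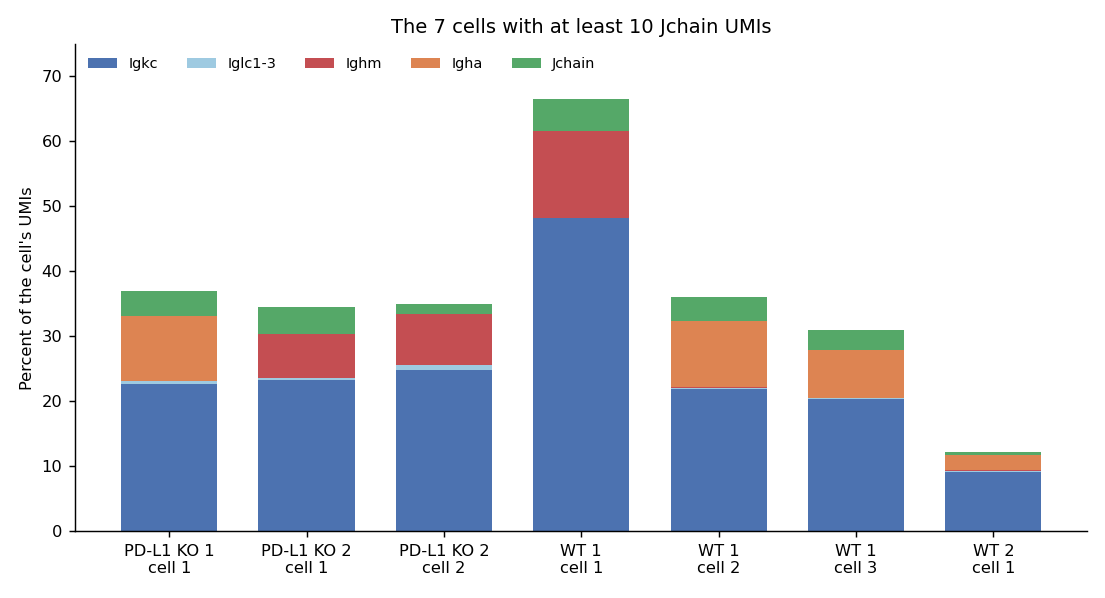
Stacked share of each antibody-secreting cell's UMIs (percent) taken by Igkc, the 3 lambda genes, Ighm, Igha and Jchain; each bar is 1 cell. The 3 cells with red Ighm segments come from PD-L1 KO 2 and WT 1, the 4 with orange Igha segments from PD-L1 KO 1, WT 1 and WT 2, and the totals run from 66.5% down to 12.3%.

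In sums over all kept cells, the number of cells of a type and the RNA per cell cannot be told apart. The antibody-secreting cells, chosen by Jchain, held 98.2% and 98.1% of all Jchain UMIs in the PD-L1 KO libraries and 99.5% and 92.4% in the WT libraries. They held 98.5% and 0% of Igha UMIs in PD-L1 KO and 99.2% and 94.2% in WT. Of the Igkc UMIs they held 19.6% and 45.5% in PD-L1 KO and 65.2% and 20.5% in WT. Over all kept cells Igkc had 828 and 990 CPM in PD-L1 KO and 1964 and 982 CPM in WT, and the high value of WT 1 stood apart from the other 3. Its log2 difference was -0.65 (SE 0.38, edgeR adjusted p = 0.751), and it became 0.01 without WT 1 and -0.22 without the antibody-secreting cells. Without WT 2 the Igkc difference was -1.09 (edgeR adjusted p = 0.0028), with the lone WT library assumed to vary like the others.

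Jchain over all kept cells had 28.0 and 55.4 CPM in PD-L1 KO and 157 and 13.1 CPM in WT, with overlapping groups and a log2 difference of -1.003 (SE 1.14, edgeR adjusted p = 0.796). It became 1.79 without WT 1 (adjusted p = 0.011) and -1.89 without WT 2 (adjusted p = 0.0059), so its direction depended on which WT library was used. Igha had 72.1 and 1.95 CPM in PD-L1 KO and 187 and 53.7 CPM in WT, also overlapping. Ighm had 355 and 440 CPM in PD-L1 KO and 600 and 374 CPM in WT, and Ighd 67.0 and 55.1 CPM in PD-L1 KO and 63.5 and 78.0 CPM in WT. Iglc1 had 73.3 and 58.6 CPM in PD-L1 KO and 56.1 and 51.7 CPM in WT, Iglc2 85.5 and 86.3 CPM in PD-L1 KO and 86.6 and 86.4 CPM in WT, and Iglc3 51.9 and 52.4 CPM in PD-L1 KO and 47.5 and 47.7 CPM in WT. None of the 8 members tested over all kept cells passed, and 0 of 13990 genes did (0%; 15 calls with DESeq2). At an unadjusted p under 0.05, edgeR gave 0 of the 8 members and 541 (3.87%) of all genes. Iglc1 and Iglc3 had both PD-L1 KO libraries above both WT libraries, an order that 14.9% of all genes showed, and Iglc2 both below by CPM, which 26.4% showed, although its log2 difference after TMM scaling was 0.05.

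Among the Cd79a-selected cells the levels of Igkc and Iglc1 were lower than in the B-like cluster, and the groups overlapped for each lambda gene. Igkc had 2939 and 2118 CPM in PD-L1 KO and 3236 and 3095 CPM in WT, and Iglc1 had 323 and 217 CPM in PD-L1 KO and 257 and 201 CPM in WT. Iglc1 overlapped between the groups there, with a log2 difference of 0.25. Of the 7 members tested, Igkc and Ighd had both PD-L1 KO libraries below both WT libraries, as did 21.4% of the 11512 genes tested, and 0 members had both above, beside 17.9% of genes. None of the 7 passed, and 0 of all genes did (0%; 12 calls with DESeq2). Igkc passed with a block on crossed replicate numbers, an alternative added after seeing the data (log2 difference -0.32, edgeR adjusted p = 0.031; 0.425 to 0.9997 under the other alternatives, DESeq2 included). At an unadjusted p under 0.05, edgeR gave 0 of the 7 members and 843 (7.32%) of all genes. The share of these cells that lay in the B-like cluster was 47.8% and 29.0% in PD-L1 KO and 49.2% and 39.8% in WT. Its part in these levels was not tested.

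With the antibody-secreting cells of that cluster counted in, the B-like cluster made up 8.92% and 4.85% of kept cells in PD-L1 KO and 7.79% and 7.45% in WT (exact permutation p = 1). Cells with at least 1 UMI of Cd79a, also with antibody-secreting cells counted in, made up 18.5% and 16.1% in PD-L1 KO and 15.6% and 18.7% in WT.

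Members were also found in cells with no UMI of Cd79a, where in most named classes they did not keep the proportions of B cells. In these cells a UMI of Ighm was present in 25.3% and 23.6% of PD-L1 KO and 20.5% and 21.1% of WT cells, and a UMI of Igkc in 5.86% and 5.67% of PD-L1 KO and 4.50% and 3.28% of WT cells. In B-like cells Igkc outnumbered Ighm, at 2.16 and 2.14 Igkc UMIs per Ighm UMI in PD-L1 KO and 2.40 and 2.55 in WT. In the Cd79a-negative T-like, NK-like, dendritic-like and monocyte/macrophage-like cells the order was reversed. The same held, with fewer UMIs, in neutrophil-like, alveolar macrophage-like and innate lymphoid-like cells. It did not hold in every library of the endothelial-like cells. These had 4 and 3 Igkc UMIs beside 7 and 1 Ighm UMIs in PD-L1 KO and 2 and 6 beside 15 and 1 in WT. Fibroblast-like cells had 3 Igkc UMIs and 1 Ighm UMI over all libraries. T-like cells had 15 and 10 Igkc UMIs beside 121 and 65 Ighm UMIs in PD-L1 KO and 28 and 2 beside 102 and 138 in WT. Over the 4 libraries Ighm made up 84.4% of member UMIs in Cd79a-negative T-like cells, 77.5% in NK-like, 84.3% in dendritic-like and 87.7% in monocyte/macrophage-like cells, against 24.0% in B-like cells. Exact 95% intervals were taken of Igkc as a share of Igkc and Ighm UMIs. In T-like, dendritic-like and monocyte/macrophage-like cells they lay below that of the B-like cells in each of the 4 libraries. So did those of the NK-like, neutrophil-like, alveolar macrophage-like and plasmacytoid dendritic-like cells. The part of free RNA in these UMIs was not tested.

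Igkc UMIs were found at differing shares in the classes outside the B lineage, here with Cd79a-positive cells counted in. Cells with no UMI of Cd79a held 35 of 1115 Igkc UMIs in dendritic-like, 71 of 2535 in monocyte/macrophage-like and 4 of 280 in innate lymphoid-like cells. They held 36 of 37 in neutrophil-like and 55 of 88 in T-like cells. Without thinning, 2.64% of the 1401 neutrophil-like cells had an Igkc UMI at a median of 1571 to 1951 UMIs per cell, and 3.72% of the 1076 T-like cells at a median of 3743 to 4134, against 97.9% of B-like cells at 2753 to 2821. The share was 16.9% in dendritic-like cells at a median of 10680 to 11691 UMIs, 11.4% in monocyte/macrophage-like cells at 5960 to 8217, and 9.09% in innate lymphoid-like cells at 3591 to 4300. Thinned to 1000 UMIs, the neutrophil-like shares were 0.730% and 1.95% in PD-L1 KO and 1.37% and 1.57% in WT, and the T-like shares 1.29% and 1.78% in PD-L1 KO and 1.78% and 0.323% in WT (exact permutation p = 1 for both classes). The thinned shares ran over the libraries from 3.66% to 11.5% in dendritic-like, from 2.00% to 7.06% in monocyte/macrophage-like and from 4.26% to 9.68% in innate lymphoid-like cells.

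Plasmacytoid dendritic-like cells, a class of interferon producers, had the highest Ighm and Iglc3 levels of the named classes outside the B lineage. Of 136 such cells, 134 had a UMI of Ighm, 126 of Iglc3, 90 of Igkc and 7 of Jchain. Ighm stood at 851 and 868.4 CPM in PD-L1 KO and 804 and 821 CPM in WT, and Iglc3 at 526 and 556 CPM in PD-L1 KO and 358 and 627 CPM in WT. In B-like cells Iglc3 stood at 518 to 574 CPM, and the WT 1 value of the plasmacytoid dendritic-like cells was the one whose exact 95% interval (299 to 424 CPM) lay below that of its own library's B-like cells (488 to 600 CPM). Igkc was at 950 and 761 CPM in PD-L1 KO and 901 and 259 CPM in WT, far under its level in B-like cells. These levels are over all 136 cells. The 115 with no Cd79a UMI held 525 of the 1102 Igkc UMIs, 778 of the 1129 of Ighm and 551 of the 666 of Iglc3. The class had 39 and 50 cells in PD-L1 KO and 34 and 13 in WT. Iglc3 made up 41.3% and 57.8% of the Iglc3 and Igkc UMIs of those 115 cells in PD-L1 KO and 55.03% and 68.1% in WT. In B-like cells it made up 5.86% and 6.67% in PD-L1 KO and 5.58% and 5.07% in WT. Pooled over libraries, this share was 51.2% in the 115 cells. In the Cd79a-negative cells of other classes it was 21.1% in monocyte/macrophage-like, 21.7% in neutrophil-like and 18.0% in alveolar macrophage-like cells. It was 10.3% in dendritic-like, 3.51% in T-like and 0% in NK-like cells, with 4, 2 and 0 Iglc3 UMIs. Igkc was 40.3% of the pooled Igkc and Ighm UMIs of the 115 cells, beside 40.7% in alveolar macrophage-like and 28.1% in neutrophil-like cells. Iglc2, nearly identical to Iglc3, had 76 UMIs in those 115 cells beside 551 of Iglc3, although B-like cells held more Iglc2 (2535 UMIs) than Iglc3 (1267 UMIs). After thinning, 51.3% and 56.0% of PD-L1 KO and 47.1% and 46.2% of WT plasmacytoid dendritic-like cells kept an Ighm UMI (exact permutation p = 0.333), and 41.0% and 46.0% of PD-L1 KO and 41.2% and 30.8% of WT cells an Iglc3 UMI (exact permutation p = 0.667).

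**Figure D4:**
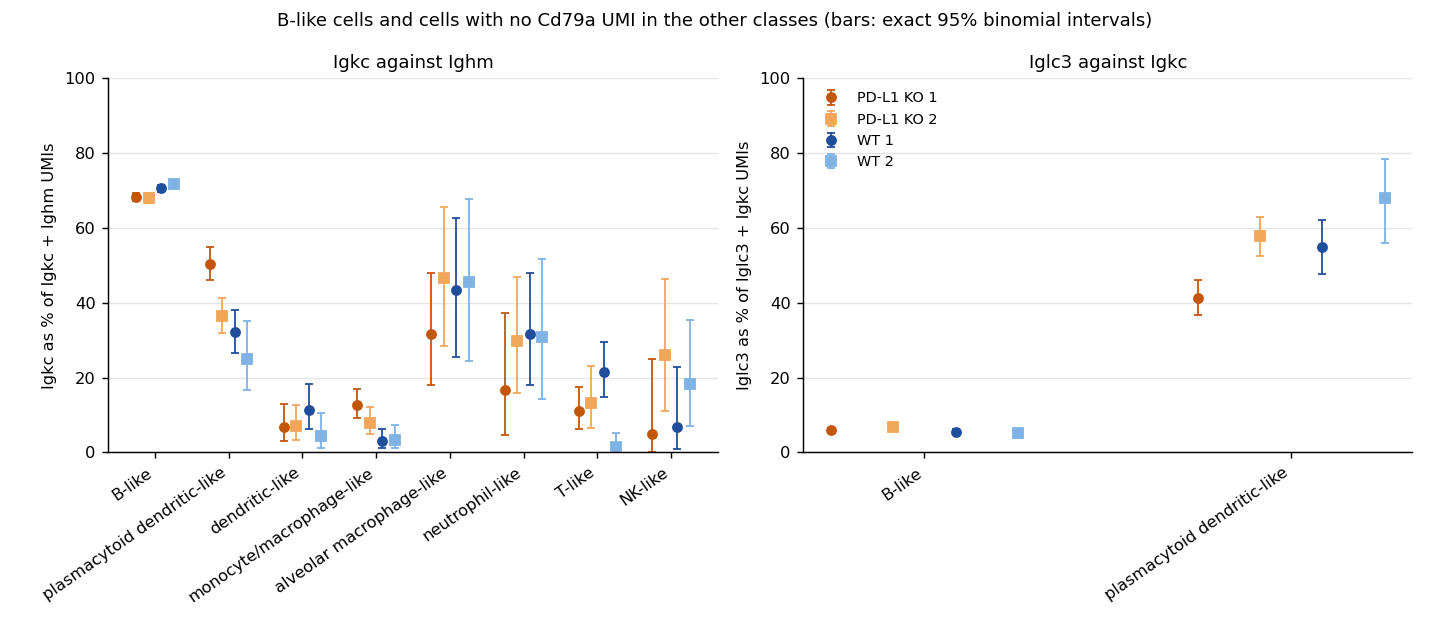
Left, Igkc as a percent of Igkc and Ighm UMIs in B-like cells and in the Cd79a-negative cells of 7 other classes; right, Iglc3 as a percent of Iglc3 and Igkc UMIs in B-like and plasmacytoid dendritic-like cells; points are libraries and bars exact 95% binomial intervals. B-like cells sit at 68.1% to 71.8% on the left and 5.07% to 6.67% on the right, and the plasmacytoid dendritic-like cells at 25% to 50.4% and 41.3% to 68.1%.

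Summed over all Cd79a-negative cells outside the B lineage, Igkc had 27.0 and 20.1 CPM in PD-L1 KO and 13.97 and 19.6 CPM in WT. Iglc3 had 14.9 and 18.7 CPM in PD-L1 KO and 8.45 and 4.74 CPM in WT, and Ighm 80.0 and 79.6 CPM in PD-L1 KO and 72.1 and 59.5 CPM in WT. Iglc1 had 0.99 and 1.70 CPM in PD-L1 KO and 0.29 and 0.44 CPM in WT. These 4 of the 7 members tested had both PD-L1 KO libraries above both WT libraries, an order that 14.6% of 13595 genes showed, and none passed the edgeR test (adjusted p = 0.775 each), nor did any other gene (0%; 20 calls with DESeq2). Igha had both below, beside 26.2% of genes, at 8 and 10 UMIs in PD-L1 KO and 13 and 43 UMIs in WT, 37 of the 43 in 1 cell. At an unadjusted p under 0.05, edgeR gave Iglc1 and Iglc3 of the 7 members and 517 (3.8%) of all genes. The log2 differences were 0.56 (SE 0.22) for Igkc, 1.40 (SE 0.35) for Iglc3, 0.34 for Ighm and 1.90 (SE 0.54) for Iglc1. Without the mixed and unnamed clusters the Igkc difference was 1.28 (edgeR adjusted p = 0.381). Without the plasmacytoid dendritic-like cells it turned to -0.57 and the Iglc3 difference fell to 0.86. Without WT 1 the Iglc3 difference was 1.94 (edgeR adjusted p = 0.00020), that of Ighm 0.54 (adjusted p = 0.011) and that of Igha -2.09 (adjusted p = 0.017). Plasmacytoid dendritic-like cells gave 259 of 382 and 158 of 248 Igkc UMIs in PD-L1 KO and 85 of 190 and 23 of 265 in WT, and a single barcode, the one close to the WT 2 secreting cell, gave 121 of the 265.

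For 5 of the 9 members, the genes most like them over the 31 clusters were found. By Pearson correlation of log2(CPM + 1) over clusters pooled across libraries, among 12558 genes, Igkc was most like Ms4a1 (r = 0.97), Cd79a, Bank1, Pou2af1 and Fcmr (r = 0.94). Ighd followed Ms4a1 (r = 0.97), Bank1, Cd79a and Fcmr closely, and Ighm most like Bank1 (r = 0.91), Pou2f2, H2-Ob, Ms4a1 and Pou2af1. Igha was most like Eaf2 (r = 0.72), Tnfrsf17, Gm15228, 2010309G21Rik and Il5ra. Jchain was most like Eaf2 (r = 0.74), Tnfrsf17, 2010309G21Rik, Fam129c and 4930597A21Rik. The cluster levels of Igha and Jchain included the antibody-secreting cells. They stood at 1848 and 1680 CPM in the B-like cluster and at 326 and 76.4 CPM in the mixed cluster of the WT 2 secreting cell. The likeness found for Igha and Jchain therefore leans on a few cells. Clusters also share libraries and differ in depth, so these values only describe likeness.

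No other gene of the antibody pathway passed the edgeR test in B-like cells. Of 15 antigen receptor signalling genes, all tested, 4 had a log2 difference above 0 and 11 below, with a median of -0.06. The most abundant were Cd79a at 3094 and 2226 CPM in PD-L1 KO and 2789 and 2528 CPM in WT, Cd79b at 1915 and 1819 CPM in PD-L1 KO and 2048 and 1877 CPM in WT, and the kinase gene Syk at 511 and 415 CPM in PD-L1 KO and 482 and 487 CPM in WT. All of them overlapped between the groups. Of 14 genes of naive B cells and homing, 7 lay above 0 and 7 below (median -0.0041). They were led by Ebf1, a B-lineage transcription factor, at 1906 and 1143 CPM in PD-L1 KO and 1397 and 1651 CPM in WT, by Ms4a1, which encodes CD20, at 1355 and 1270 CPM in PD-L1 KO and 1396 and 1212 CPM in WT, and by the transcription factor gene Foxp1 at 1108 and 804 CPM in PD-L1 KO and 912 and 1089 CPM in WT.

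Of 21 antibody secretion genes 16 were tested in B-like cells, and 13 lay above 0 and 3 below, with a median of 0.23 beside 0.01 over all 6211 genes. Hspa5, the endoplasmic reticulum chaperone BiP, had 375 and 326 CPM in PD-L1 KO and 232 and 284 CPM in WT, a log2 difference of 0.45 (SE 0.20, edgeR adjusted p = 0.998). Hsp90b1, another chaperone of that compartment, had 335 and 298 CPM in PD-L1 KO and 296 and 274 CPM in WT. Mzb1 overlapped, with 386 and 458 CPM in PD-L1 KO and 423 and 408 CPM in WT. In this list 6 of the 16 genes had both PD-L1 KO libraries above both WT libraries, beside 15.9% of all genes. The list lay mostly above 0 in the other sets too, so this was not particular to B-like cells. It did so for 16 of 20 genes tested in Cd79a-negative cells outside the B lineage (median 0.25). In Cd79a-selected cells 15 of 19 did (median 0.19), and over all kept cells 17 of 21 (median 0.23).

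The other lists had few genes that could be tested in B-like cells. Of 9 class switch and germinal centre genes 2 were tested. Bcl6, the germinal centre regulator, had 17.3 and 5.06 CPM in PD-L1 KO and 24.7 and 18.0 CPM in WT, and Ung, a uracil glycosylase of class switching, 3.15 and 27.8 CPM in PD-L1 KO and 5.81 and 18.0 CPM in WT. Of 5 antibody transport and receptor genes 2 were tested. Fcmr, the IgM Fc receptor, had 1028 and 870 CPM in PD-L1 KO and 983 and 861 CPM in WT, and Fcgrt, the neonatal Fc receptor, 18.9 and 30.4 CPM in PD-L1 KO and 17.4 and 16.3 CPM in WT. Tgfb1, whose product promotes the switch to IgA, had 200 and 144 CPM in PD-L1 KO and 198 and 247 CPM in WT. Ighg3, the most abundant of the constant genes outside the 9, had 1.57 and 22.8 CPM in PD-L1 KO and 59.6 and 4.90 CPM in WT. In WT 1, 36 of its 41 UMIs came from 1 cell. Ighg3 did not pass edgeR's test over the 4 libraries. Its log2 difference was -4.29 without PD-L1 KO 2 and -2.56 without WT 2, and both fits kept that cell.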

How the data were processed

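Per the labels' protocols, the libraries were made with the 10x Genomics Chromium 3′ kit. Per the submitters' processing notes, Cell Ranger 3.1.0, STAR and mm10 were used. The authors deposited filtered tables of UMI counts per gene and cell, with no normalization. Which transcript form, membrane or secreted, a UMI came from cannot be told from these counts, and IgG2a, which Balb/c mice carry, was not analysed here.

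Barcodes with at least 200 genes and at most 10% mitochondrial UMIs were kept (1126 of 10382 failed), and 216 (2.08%) with the highest scores of simulated doublets were removed. Clustering used scanpy 1.11.5 and leidenalg 0.10.2 (2000 variable genes, 30 components, 15 neighbours, resolution 1), without 393 immunoglobulin genes and Jchain, ribosomal, mitochondrial and interferon-family genes. A cluster was named from listed markers; the limits for mixed clusters (a second lineage with at least 4 markers in 25% of cells and a level at least 0.33 of the first) were set after the clusters were seen. CPM is UMIs scaled to 1000000 UMIs of the set.

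UMI counts were summed per library and tested with edgeR 4.0.16 (filterByExpr, TMM scaling, quasi-likelihood test, Benjamini-Hochberg adjustment over all genes tested, 0.05), which was tested on simulated data. DESeq2 1.42.0 was an alternative, under R 4.3.3. Shares were compared by exact two-sided permutation over 4 libraries. Intervals are exact (95%) and cover counting error only. Those over UMIs take each UMI as an independent draw, although a single cell can hold many of them. Genes beyond the 9 were named as the 3 most abundant of each list in B-like cells, any that passed, and the 5 most like 5 of the members. Of the 5 for Ighd, 1 is not reported here. The members and lists were chosen with earlier results of these data known. Same-numbered libraries did not deviate together (correlations of -0.30 to -0.12 over genes).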

Additional observations from a re-analysis of the deposited data

Results flagged for a closer look

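Igkc differed in direction between cell sets. In B-like cells both PD-L1 KO libraries lay below both WT libraries (log2 difference -0.15), while in Cd79a-negative cells outside the B lineage both lay above (0.56). The difference between these 2 log2 differences was 0.714. Against the Cd79a-selected cells, where Igkc was also lower in both PD-L1 KO libraries (-0.31), it was 0.867. Neither difference was itself tested. Without the plasmacytoid dendritic-like cells the log2 difference of Igkc outside the B lineage was -0.57, so the opposite directions were then not seen. That fit kept the barcode close to the WT 2 secreting cell, which gave 121 of the 265 Igkc UMIs of WT 2 outside the B lineage. A fit without this barcode was not made. Without the mixed and unnamed clusters it was 1.28.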

How the results depend on the processing

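The 9 genes and the genes named beside them gave 573 values under the alternatives, of which 47 had the opposite sign to the value reported. None of these reversals was past the edgeR test except Jchain over all kept cells without WT 1 (1.79). The cause was not tested for any change below. Counts of genes called, over all kept cells, were 0 as reported and 15 with DESeq2. In B-like cells the count was 1 as reported, 0 with DESeq2, 0 with antibody-secreting cells kept in, 0 at clustering resolution 2, 2 at resolution 0.5 and 16 with no filter on low counts. In Cd79a-selected cells it was 0 as reported, 12 with DESeq2, 43 with no filter and 1 with the B-like cluster only (chosen after seeing the data). In the other cells it was 20 with DESeq2.

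With a replicate block the counts were 0 over all kept cells, 1 in B-like, 9 in Cd79a-selected and 0 in other cells; the labels share only a number between groups, and same-numbered libraries correlated at -0.30 to -0.12. A block on the crossed numbers, added after seeing the data, gave 0, 0, 425 and 0 calls in the same order. With 1 library left out in turn, the lone library being assumed to vary like the others, the counts ran from 0 to 2258 over all kept cells, from 5 to 61 in B-like, from 7 to 577 in Cd79a-selected and from 0 to 2650 in other cells. Without WT 1 they were 2258, 5, 577 and 2650 in that order.

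Over the same fits, log2 differences crossed 0 as follows. Over all kept cells, Igkc ran from -1.09 to 0.010, Ighm from -0.58 to 0.21 and Jchain from -1.89 to 1.79. In B-like cells, Ighd ran from -0.38 to 0.017, Cd79a from -0.22 to 0.18, Cd79b from -0.15 to 0.014, Syk from -0.19 to 0.044, Ebf1 from -0.37 to 0.29, Ms4a1 from -0.10 to 0.14, Foxp1 from -0.27 to 0.12, Mzb1 from -0.14 to 0.18, Ung from -1.85 to 1.28 and Fcmr from -0.065 to 0.16. In Cd79a-selected cells, Iglc1 ran from -0.033 to 0.49, Iglc2 from -0.20 to 0.13, Iglc3 from -0.26 to 0.0020 and Igha from -0.23 to 0.78. The difference in antibody-secreting cells per library ran from -1.5 to 0.5, in the B-like share from -2.76 to 1.30 percentage points, in the thinned Igkc share from -0.74 to 0.48 in neutrophil-like and from -0.24 to 1.21 in T-like cells, and in the thinned Ighd share of B-like cells from -14.1 to 2.60. The lambda share difference kept its sign, from 6.63 to 8.11, as did the switched share difference, from -1.19 to -1.13.

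Other reversals were mostly of values near 0. Cd79a in B-like cells became -0.0061 with no filter, -0.0098 with the block, -0.0065 with the crossed block, -0.0090 with antibody-secreting cells, -0.0041 at resolution 2 and -0.0059 with immunoglobulin genes kept in clustering. Ebf1 became -0.00073 with no filter, -0.030 with the block, -0.027 with the crossed block, -0.0068 with antibody-secreting cells and -0.0055 with immunoglobulin genes kept. Ms4a1 became -0.0032 with antibody-secreting cells and -3.4e-05 with immunoglobulin genes kept, and Mzb1 and Fcgrt became -0.0049 and -0.015 at resolution 2. Iglc2 over all kept cells became -0.011 without TMM scaling. In Cd79a-selected cells, Iglc2 became 0.011 with at least 2 UMIs of Cd79a and, with the B-like cluster only, Iglc2 became 0.36, Iglc3 0.083, Ighm 0.049 and Igha -3.97. Igkc in other cells became -0.57 without plasmacytoid dendritic-like cells, an alternative added after seeing the data. The B-like share difference became 0.19 percentage points by Cd79a at 1 UMI or more, also added then. The Iglc3 share in plasmacytoid dendritic-like cells became -6.56 without thinning. Depth limits Igha, Ighg2b and Jchain outside antibody-secreting cells, which had 25 UMIs or fewer in B-like cells.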

Other observations

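In B-like cells the variable genes of lambda chains were seldom counted: 7.69% of the 26 lambda cells and 1.73% of the 405 kappa cells had a UMI of Iglv1, 11.5% and 0.99% a UMI of Iglv3, and 0% of either type a UMI of Iglv2.

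Jchain UMIs below the limit for antibody-secreting cells lay in 7 plasmacytoid dendritic-like cells (12 UMIs), 7 B-like cells (13 UMIs) and 12 cells of mixed clusters (24 UMIs). A plasmacytoid dendritic-like cell of PD-L1 KO 2 held 5 of them, with 21 UMIs of Siglech, a surface receptor of that class, 8 of Ighm and 0 of Igkc.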
